A study of Rattus norvegicus with 6 samples.

Results

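The cytosolic ribosomal protein genes code for the proteins of the 40S and 60S subunits of the ribosome, and their messenger RNAs were compared between rat mesenchymal stem cells (MSC) of different bones. The members were chosen by gene symbol alone, as Rpl or Rps followed by a number, or Rpsa, Rplp0, Rplp1 or Rplp2, with the Rps6k kinases left out. The rule found 108 rows of 30498 in the gene count table, under 81 symbols. Of these rows, 52 were canonical ribosomal protein genes with 1 row each, 43 were rows of 16 canonical symbols that the table lists more than once, and 13 were paralogs, relatives whose symbol ends in l or in l and digits. Although the rule reads names and no level, the gene group was picked from earlier results of these same libraries, so the counts of members that changed are a description and support nothing further. The series had 3 RNA sequencing libraries of rbMSC, wild-type MSC of femur and tibia bone marrow, and 3 of rcMSC, wild-type MSC of cranial bone marrow. The labels give no strain, age, passage or treatment, and they do not state whether the libraries within a group derive from different animals or cultures, so the p-values reflect library-to-library spread, which may be technical. The series belongs to work on grafting cranial MSC into the injured spinal cord, and its design text names the comparison of rcMSC with rbMSC. Replicate 3 of rcMSC stood apart from the other rcMSC libraries, and values without it are given beside the results that rest on it.

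Each ribosome holds 1 copy of nearly every ribosomal protein, so their messages are abundant, short and made in step with one another. In vertebrates these messages begin with a 5' terminal oligopyrimidine (TOP) tract, a C followed by a run of pyrimidines at the start of transcription, through which the mTOR kinase pathway and the RNA-binding protein LARP1 set their translation and stability. A gene family of this kind leaves many processed copies in mammalian genomes, some of which became expressed paralogs.

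RefSeq sequences around the annotated transcription start, from build GRCr8, are shown to let the start of the message be read beside its change. Of the 68 canonical symbols with a row, 53 matched 1 RefSeq window by symbol. Each line gives 10 bases before the annotated start and 20 bases from it, 5' to 3', with the unbroken pyrimidine run that begins at the start in capitals. The first 5 are the member that rose most in the small subunit (Rps27), the highest and second highest per length (Rps23 and Rplp1), the anchor of the stalk (Rplp0) and the longest run that opens with a C (Rpl31), and the last 2 are the canonical genes that rose least (Rps3 and Rpl11).
Rps27: cgctttcgctCCTTTCCggcggtgacgacc
Rps23: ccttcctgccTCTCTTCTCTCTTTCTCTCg
Rplp1: cgcatgtgatCCTTTCCTCagctgccgcca
Rplp0: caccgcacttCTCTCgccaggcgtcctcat
Rpl31: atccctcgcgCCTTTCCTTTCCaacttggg
Rps3: ttcagcggcgCgcggcagcaagatggcggt
Rpl11: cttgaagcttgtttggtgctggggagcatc
In GRCr8 these windows lie at chr2:177964587-177964616 (minus strand), chr2:23814507-23814536 (plus strand), chr8:71290853-71290882 (minus strand), chr12:46718371-46718400 (minus strand), chr9:49143101-49143130 (plus strand), chr1:163195757-163195786 (minus strand) and chr5:153560783-153560812 (minus strand). Capitals were absent from Rpl11, whose annotated start is a G, and in Rps3 they cover a single C. Genes that rose more could also lack a run, as in Rps28 (a G at the start, log2 fold change 1.36) and Rps12 (an A, 1.35).

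A C at the annotated start followed by at least 4 pyrimidines was found in 20 of 53 member windows (37.7%) and in 881 of all 33469 RefSeq windows (2.63%). A run of at least 8 pyrimidines lay within 20 bases of the annotated start in 39 of 53 members (73.6%), against 15.5% of all windows. On the sense strand within 30 bases of the start, CTTTCC was present in 32.1% of members and 2.59% of all windows, and CTCTTT, which can overlap it, in 30.2% and 2.53%. Searched on both strands within 50 bases, CTTCCG, which holds the core that ETS factors bind, was present in 37.7% of members and 8.35% of all windows. AAGATGG, which matches a YY1 motif, was present in 13.2% and 3.27%. It also holds an ATG, as in the Rps3 window above, and whether matches were start codons was not tested. Among the 42 single-row genes with a window, the 15 that opened with the C and 4 pyrimidines had a median log2 fold change of 1.08 (0.89 to 1.55), and the 27 others had 1.03 (0.54 to 1.36), so the ranges overlapped. The 27 others include genes with a pyrimidine run that opens with a T, such as Rps23. A match to letters is a description of the annotated sequence, and the start used in these cells was not measured here.

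All 52 canonical single-row genes were higher in rcMSC than in rbMSC by edgeR's quasi-likelihood test (adjusted p under 0.05 over the 14836 genes tested) and none was lower, against 22.6% of all genes called higher and 23.2% called lower. Their median log2 fold change was 1.07, a 2.11-fold rise, where the median of all genes tested was 0.02. The smallest change was 0.54 and the largest 1.64, 51 of the 52 were at least 1.5 times higher and 38 at least 2 times. In all 52 the 3 rcMSC libraries lay above the 3 rbMSC libraries, a separation seen in 28.3% of all genes tested. Summed over the 52 genes, the level was 5088, 5169 and 5316 CPM (counts scaled by library size) in rbMSC replicates 1 to 3 and 11735, 12208 and 8350 CPM in rcMSC replicates 1 to 3. The ratio of the group means was 2.07, a log2 ratio of 1.05. As a share of all counts the 52 genes took 0.510%, 0.519% and 0.533% of the rbMSC libraries and 1.197%, 1.238% and 0.798% of the rcMSC libraries.

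Library totals were 21340290 to 25170868 counts in rbMSC and 26179769 to 26928079 in rcMSC, and the part of this difference in depth in the result was not tested. Over all genes, the counts of rcMSC replicate 3 differed from those of the other rcMSC libraries by 42.0 and 42.8 chi-square units per degree of freedom, where the other rcMSC pair differed by 3.16 and rbMSC pairs by 2.69 to 2.92. It was the lowest rcMSC library in 51 of the 52 canonical genes, and it was above every rbMSC library in 52 of 52. The median canonical gene stood at 2.29, 2.37 and 1.65 times the rbMSC mean in rcMSC replicates 1, 2 and 3. Without replicate 3 the median log2 fold change was 1.21, from 0.69 in Rpl11 to 1.82 in Rpl23a, and all 52 genes were called higher. Markers fixed for the cell type were detected in all libraries. The mesenchymal list summed to 48045 to 48389 CPM in rbMSC and 69392 to 86168 CPM in rcMSC, with 5 of its 10 genes higher and 5 lower. Most of each sum came from the collagens Col1a1, Col1a2 and Col3a1, which rose by 0.84, 0.55 and 0.75 on the log2 scale. Eng (0.88) and Cd44 (0.58) were also higher. The lower genes were Thy1 (-1.12), Nt5e (-0.99), Pdgfrb (-0.92), Pdgfra (-0.65) and Itgb1 (-0.43).

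**Figure D1:**
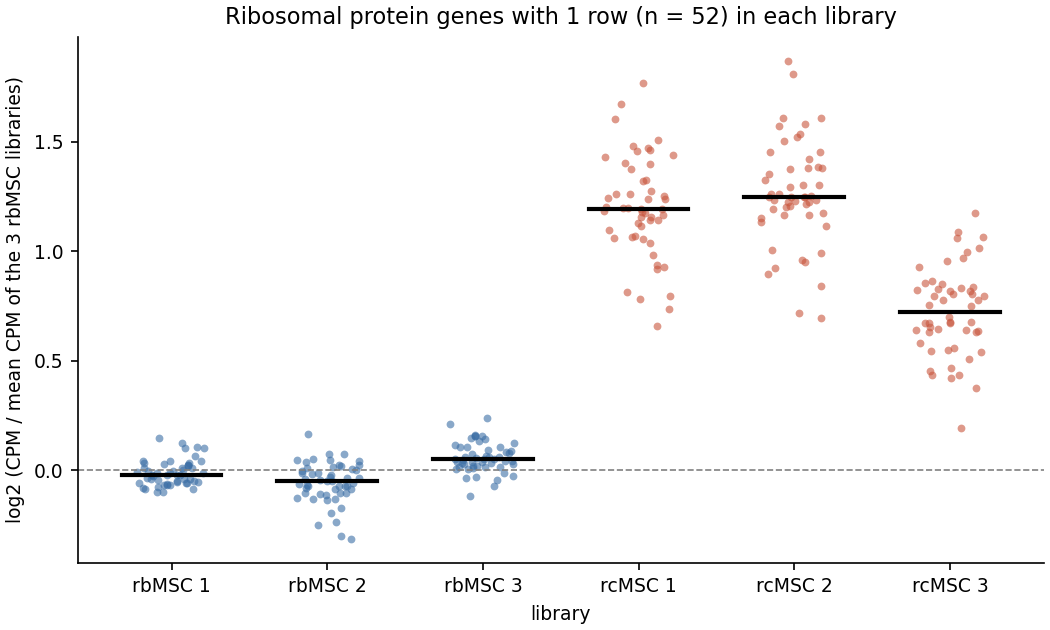
Log2 ratio of each library's CPM to the mean of the 3 rbMSC libraries, for the 52 canonical ribosomal protein genes with 1 row, with each point a gene and each bar the library's median. The rbMSC medians lie between -0.05 and 0.05, and the rcMSC medians are 1.19, 1.25 and 0.72 in replicates 1, 2 and 3.

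Markers of other cell types and cell cycle genes were read beside the shares over all genes tested, 22.6% called higher and 23.2% called lower. Of 12 macrophage markers, 7 were lower in rcMSC, none was higher in edgeR and 5 did not pass, at 943 to 947 CPM summed in rbMSC and 547 to 563 CPM in rcMSC. Ptprc, Csf1r and Adgre1 were above 0 in both groups. Lymphoid, neutrophil and erythroid markers were near 0, at no more than 0.260 CPM summed in any library for each list, with Cd3g, S100a8, Elane and Camp listed at 0 in all 6. Endothelial markers summed to 6.08 to 9.27 CPM in rbMSC and 10.3 to 12.5 CPM in rcMSC, with 1 of 5 higher (Tek, log2 fold change 0.90). Osteoclast markers summed to 61.7 to 65.8 CPM and 87.8 to 108 CPM, with 1 of 3 tested higher (Ctsk, 0.63). Nearly all of that sum was Ctsk, at means of 60.8 CPM in rbMSC and 94.1 CPM in rcMSC. Acp5 (-0.37) and Mmp9 (0.84) did not pass (edgeR adjusted p = 0.242 and 0.188). Of 16 proliferation genes, 12 were lower in rcMSC and none was higher in edgeR, with a median log2 fold change of -1.03 and with Cdc20, an activator of the anaphase-promoting complex, lowest at -1.59. Their summed level was 461 to 469 CPM in rbMSC and 266 to 268 CPM in rcMSC. The part of these cells and of the cell cycle in the ribosomal protein result was not tested, and in bulk RNA fewer cells of a type and less RNA per cell cannot be told apart.

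The 24 single-row genes of the small subunit had a median log2 fold change of 1.10, between 0.61 and 1.55. Rps27 (ENSRNOG00000016961, chromosome 2, 175665853 to 175666964 in mRatBN7.2), a zinc finger protein of the 40S subunit, rose most among them. Its level was 10.1, 8.0 and 11.7 CPM in rbMSC and 31.6, 34.9 and 21.2 CPM in rcMSC, with no overlap between groups. This gave a log2 change of 1.55 with an SE of 0.206 (edgeR, adjusted p = 0.000427). Rps28 (ENSRNOG00000042886, chromosome 7, 14607801 to 14609170), which lies near the exit of the message channel, had 12.3, 9.3 and 11.6 CPM in rbMSC and 31.5, 33.7 and 20.03 CPM in rcMSC, a log2 change of 1.36 with an SE of 0.20 (edgeR, adjusted p = 0.000751). Rps25 (ENSRNOG00000027503, chromosome 8, 44733029 to 44737271), needed for initiation from some viral internal entry sites, had 28.4, 27.3 and 30.8 CPM in rbMSC and 87.6, 82.8 and 50.9 CPM in rcMSC, a log2 change of 1.35 with an SE of 0.198 (edgeR, adjusted p = 0.00126). In both, the lowest rcMSC library was replicate 3 and stood above the highest rbMSC library. Exons of Rps25 overlap those of Trappc4 and Cenatac on the opposite strand, and those of Rps28 overlap Ndufa7. With the strand setting of the counting not given, their reads cannot be told apart, and Trappc4, Cenatac and Ndufa7 had log2 fold changes of 0.08, -0.30 and 0.62 at 3.95, 2.99 and 15.1 CPM.

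Rps12 (ENSRNOG00000016411, chromosome 1, 21680852 to 21683014), on the beak of the 40S head, had 64.3, 50.8 and 72.5 CPM in rbMSC and 169.6, 177 and 131 CPM in rcMSC, a log2 change of 1.35 with an SE of 0.156 (edgeR, adjusted p = 0.00030). Rps19 (ENSRNOG00000037897, chromosome 1, 80480951 to 80486508), the gene first linked to the inherited anemia of Diamond and Blackfan, had 15.2, 13.2 and 16.8 CPM in rbMSC and 35.6, 41.2 and 31.4 CPM in rcMSC, a log2 change of 1.26 with an SE of 0.121 (edgeR, adjusted p = 1.98e-05). Its groups did not overlap, and rcMSC replicate 2 was the highest. At the low end, Rps3 (ENSRNOG00000017418, chromosome 1, 153777472 to 153783680), at the channel where the message enters, had 59.9, 57.6 and 59.96 CPM in rbMSC and 98.7, 95.8 and 76.8 CPM in rcMSC, a log2 change of 0.61 with an SE of 0.0902 (edgeR, adjusted p = 0.000372). Rpsa (ENSRNOG00000018645, chromosome 8, 119851225 to 119855247), also known as the laminin receptor precursor, had 227, 245 and 237 CPM in rbMSC and 411, 423 and 317 CPM in rcMSC, a log2 change of 0.70 with an SE of 0.101 (edgeR, adjusted p = 0.00041). Both were separated between groups, with rcMSC replicate 3 nearest to rbMSC. The 11 single-row genes of the 40S head had a median of 1.26 and the 13 outside it 1.07, with ranges of 0.61 to 1.36 and 0.70 to 1.55 that overlap.

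Per length, Rps23 (ENSRNOG00000016580, chromosome 2, 22079302 to 22080918), a protein of the decoding centre, was the single-row canonical gene with the highest level, with a mean of 574 CPM per kilobase of gene length (RPKM) in rbMSC and 1437 RPKM in rcMSC. Its level was 394, 412 and 431 CPM in rbMSC and 1152, 1236 and 708 CPM in rcMSC, a log2 change of 1.32 with an SE of 0.201 (edgeR, adjusted p = 0.00199). Rps27a (ENSRNOG00000004426, chromosome 14, 103285734 to 103288011), made as a fusion with ubiquitin, had 214 and 517 RPKM. It had 208, 217 and 215 CPM in rbMSC and 588, 618 and 340.1 CPM in rcMSC, a log2 change of 1.27 with an SE of 0.219 (edgeR, adjusted p = 0.0039). In both genes rcMSC replicate 3 was well below the other rcMSC libraries and above rbMSC. Rps6, the phosphorylated target of S6 kinase, is listed in 2 rows. The main row (ENSRNOG00000007663, chromosome 5, 101371136 to 101374602) had 543, 528 and 598 CPM in rbMSC and 1546, 1737 and 1026 CPM in rcMSC, a log2 change of 1.37 with an SE of 0.185 (edgeR, adjusted p = 0.00098). The second, 264-base row held between 0.128% and 0.317% of the symbol's counts and did not pass, at 1.03 on the log2 scale (edgeR adjusted p = 0.0664), but passed without rbMSC replicate 3 (0.0394) or rcMSC replicate 3 (1.56e-05), with DESeq2 (0.0339) and with the abundance trend removed (0.0456).

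The 28 single-row genes of the large subunit had a median of 1.05, between 0.54 and 1.64. Rpl23a (ENSRNOG00000023344, chromosome 10, 63076066 to 63079346), at the exit of the peptide tunnel where the signal recognition particle docks, rose most of the 52. Its level was 53.6, 52.5 and 59.3 CPM in rbMSC and 188, 201 and 125 CPM in rcMSC, so that each rcMSC library was above every rbMSC library. This gave a log2 change of 1.64 with an SE of 0.175 (edgeR, adjusted p = 0.000257), and 1.51 to 1.82 with any 1 library left out. Exons of Tlcd1 overlap it on the opposite strand, at 1.59 CPM. The 7 single-row genes of the peptide exit tunnel had a median of 1.06, from 0.80 in Rpl4 to 1.64 in Rpl23a. Rpl4 (ENSRNOG00000009378, chromosome 8, 64671160 to 64676306), which forms part of the tunnel's narrowest stretch, had 304, 313 and 319.9 CPM in rbMSC and 594, 608 and 432 CPM in rcMSC, a log2 change of 0.80 with an SE of 0.118 (edgeR, adjusted p = 0.000641). Per length it was at 221 RPKM in rbMSC and 386 RPKM in rcMSC, below Rpl32 at 230 and 509 RPKM. Zwilch, on the opposite strand at 25.4 CPM and -0.08 on the log2 scale, has exons that overlap those of Rpl4. Rpl32 (ENSRNOG00000010746, chromosome 4, 148864044 to 148867612), a structural 60S protein, had 116, 119 and 116 CPM in rbMSC and 310.2, 287 and 182 CPM in rcMSC, a log2 change of 1.15 with an SE of 0.187 (edgeR, adjusted p = 0.00254).

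The stalk of the 60S subunit, which recruits the GTPase factors of translation, rose with the rest. Rplp0 (ENSRNOG00000001148, chromosome 12, 41054179 to 41057632), which anchors it, had 223, 233 and 235 CPM in rbMSC and 508, 517 and 402 CPM in rcMSC, a log2 change of 1.05 with an SE of 0.0908 (edgeR, adjusted p = 1.01e-05). Rplp1 (ENSRNOG00000013874, chromosome 8, 62393177 to 62395339), which pairs with Rplp2 on that anchor, had 559, 657 and 540.4 CPM in rbMSC and 1227, 1175 and 852 CPM in rcMSC, a log2 change of 0.89 with an SE of 0.14 (edgeR, adjusted p = 0.00127). The partner Rplp2 (ENSRNOG00000068445, chromosome 1, 196546352 to 196548645) had 21.1, 20.4 and 21.8 CPM in rbMSC and 45.2, 48.5 and 35.5 CPM in rcMSC, a log2 change of 1.03 with an SE of 0.112 (edgeR, adjusted p = 4.79e-05). None of the 3 overlapped between groups. Per length Rplp1 stood at 442 RPKM in rbMSC and 819 RPKM in rcMSC, Rplp0 at 180 and 373 RPKM, and Rplp2 lower, at a mean of 71.3 RPKM over both groups.

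Rpl5 and Rpl11, which carry the 5S ribosomal RNA and can bind the p53 regulator Mdm2 when they are not in ribosomes, were in the lower part of the range. Rpl5 (ENSRNOG00000023529, chromosome 14, 1843770 to 1850290) had 119, 112 and 123 CPM in rbMSC and 207, 227 and 171 CPM in rcMSC, a log2 change of 0.78 with an SE of 0.095 (edgeR, adjusted p = 0.000121). Rpl11 (ENSRNOG00000026260, chromosome 5, 148274069 to 148277599) had 25.6, 22.7 and 23.3 CPM in rbMSC and 37.7, 39.2 and 27.3 CPM in rcMSC, a log2 change of 0.54 with an SE of 0.13 (edgeR, adjusted p = 0.00707), the smallest change of the 52. The lowest rcMSC library of Rpl11 was 27.3 CPM and the highest rbMSC library 25.6 CPM, so the groups were close but did not overlap. Rpl3 (ENSRNOG00000016896, chromosome 7, 111621610 to 111636468), near the peptidyl transferase centre, rose from 299.5 ± 19.99 to 520.1 ± 45.97 CPM (SD, n = 3 each), a log2 change of 0.80 with an SE of 0.0767 (edgeR, adjusted p = 1.82e-05). The next above Rpl11 in order were Rps3 (0.61), Rpsa (0.70), Rpl18 (0.77), Rpl5 (0.78), Rpl3 (0.80) and Rpl4 (0.80). Exons of Sphk2, on the opposite strand at 14.5 CPM and -0.20, overlap Rpl18. The 14 single-row genes mutated in Diamond-Blackfan anemia in humans had a median of 1.06, from 0.54 to 1.55.

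**Figure D2:**
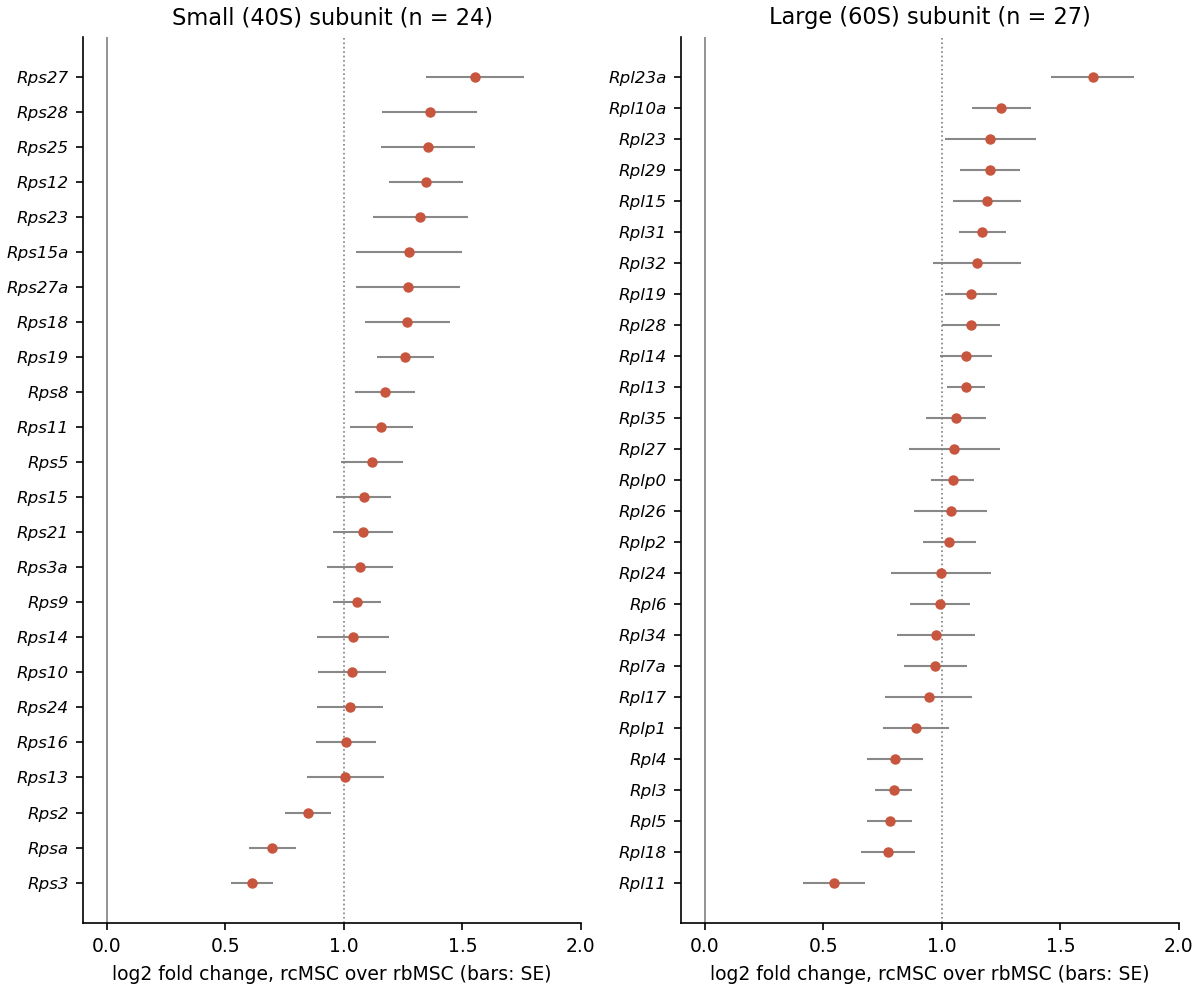
Log2 fold change, rcMSC over rbMSC, of the 24 small-subunit genes and 27 of the 28 large-subunit genes with 1 row, the other being counted in the text but not reported singly, with bars of 1 SE from the edgeR fit and a dotted line at a 2-fold rise. All points lie right of 0, from 0.54 in Rpl11 to 1.64 in Rpl23a.

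The 43 rows of the 16 repeated symbols were read apart, since near-identical copies can share reads. Of 40 tested, 35 were higher in rcMSC, none was lower and 5 did not pass in edgeR. Over all genes tested, 22.6% were called higher and 23.2% lower. The rows had a median log2 fold change of 1.15 and no value below 0.58. Most of these symbols have a multi-exon parent row and 1 or more copies with a single exon block. The 23 tested single-block rows had a median of 1.22 against 1.13 in the 17 with several blocks. Rpl37 had the largest values of all members, at 1.80 on chromosome 10 and 1.89 on chromosome 9, and both rows have a single exon block. They had 1.31, 1.73 and 1.19 CPM in rbMSC and 5.75, 5.96 and 3.0 CPM in rcMSC, and 1.12, 1.38 and 1.23 CPM in rbMSC and 5.1, 6.0 and 2.8 CPM in rcMSC. Each row held close to an equal part of the symbol's counts in every library, with 44.4% to 50.8% in the row on chromosome 9. The RefSeq window of Rpl37 lies on chromosome 2 (GRCr8), where the symbol has no row. The values are therefore of rows that may be copies, and a parent row was not read under this symbol. Rpl12, part of the stalk base, had 113, 108 and 116 CPM in rbMSC and 396, 429 and 252 CPM in rcMSC in its 5-block row on chromosome 3, a log2 change of 1.68 with an SE of 0.19 (edgeR, adjusted p = 0.00044). Its single-block row on X had a log2 fold change of 1.46 and held 4.80% to 6.22% of the counts.

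Rpl39, a small protein of the tunnel wall, was listed in 6 rows. The 4-block row on X had 21.8, 17.1 and 22.02 CPM in rbMSC and 56.3, 49.999 and 32.8 CPM in rcMSC, a log2 change of 1.19 with an SE of 0.204 (edgeR, adjusted p = 0.0024). The 5 single-block copies rose by 1.48 to 1.77 and together held 28.6% to 36.5% of the symbol's counts. Their 156-base rows on chromosomes 20 and 7 had almost the same counts, 27, 24, 22, 120, 85 and 47 against 27, 23, 22, 108, 82 and 43 over the 6 libraries in the same order. Rpl38, whose loss in mice alters translation of Hox messages, also had 6 rows. Its 4-block row on chromosome 10 had 11.6, 9.65 and 10.7 CPM in rbMSC and 24.9, 25.96 and 19.2 CPM in rcMSC, a log2 change of 1.13 with an SE of 0.129 (edgeR, adjusted p = 5.80e-05). Of its copies, those on chromosomes 3, 14 and 2 passed at 1.14, 1.03 and 1.09, the one on chromosome 16 did not (0.71, edgeR adjusted p = 0.128) and the one on chromosome 7 had no count. These 3 calls were lost without rbMSC replicate 2 or 3 or rcMSC replicate 2 and with the length trend removed (edgeR adjusted p = 0.0524 to 0.126), and 2 of them also without rcMSC replicate 1 (0.0591 and 0.0593) or with DESeq2 (0.057 and 0.07).

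The parent rows of the other repeated symbols rose within the range of the single-row genes. Among them were Rps4x (1.27), Rps29 (1.24), Rps20 (1.17), Rpl36a (1.27), Rpl21 (1.11), Rpl22 (1.03), Rpl9 (0.95), Rpl30 (0.86) and Rpl8 (0.85). Second rows gave 1.35 in Rps4x, 1.42 in Rpl36a, 1.02 in Rpl21 and 0.87 in Rpl8. Copies of Rpl9 gave 0.90 and 1.03 and those of Rps20 0.83 and 0.95. The copy of Rps29 did not pass at 0.89 (edgeR adjusted p = 0.135). Both rows of Rpl35a, at under 1 CPM in every library, did not pass (0.58 and 1.08, edgeR adjusted p = 0.182 and 0.0587), and the second passed without rcMSC replicate 3 (0.0187) and with the abundance trend removed (0.0311). They lie on chromosomes 6 and 5, while the RefSeq window of Rpl35a lies on chromosome 11 (minus strand, GRCr8). The row named Rpl35al1, with 3 exon blocks, lies on chromosome 11 (minus strand, mRatBN7.2). Whether it is the Rpl35a gene and these rows are copies was not tested. Rpl30 had 21.7, 25.8 and 23.6 CPM in rbMSC and 48.9, 49.96 and 29.6 CPM in rcMSC on chromosome 7, and a single-block copy on chromosome 10 held 37.1% to 44.6% of its counts and rose by 1.22. The 2 copies of Rps20 lost their calls when any of rbMSC replicates 1 and 2 or rcMSC replicates 1 and 2 was left out (edgeR adjusted p = 0.0604 to 0.0829), and with the length trend removed (0.0529 and 0.0677). No row tested of a repeated symbol had a negative value. Another short Rpl30 row and a second Rpl22 row held at most 7 counts in a library and were not tested.

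Of the 13 paralogs, 11 had enough counts, and 10 of these were higher and 1 lower in rcMSC. The shares over all genes were 22.6% higher and 23.2% lower. The median log2 fold change of the 11 was 1.06. The one that fell was Rpl39l (ENSRNOG00000032300, chromosome 10, 5454559 to 5462029), a relative of Rpl39 that in mice is most abundant in testis. It had 70, 62 and 94 counts in the rbMSC libraries and 3, 3 and 8 in the rcMSC libraries, 3.27, 2.68 and 3.72 CPM in rbMSC and 0.109, 0.11 and 0.32 CPM in rcMSC. The groups were far apart, with a log2 change of -4.16 with an SE of 0.37 (edgeR, adjusted p = 1.02e-05). Leaving out rcMSC replicate 3 moved the value to -4.82. Its canonical relative Rpl39 went the other way, from 20.3 ± 2.79 to 46.3 ± 12.2 CPM (SD, n = 3 each) in its 4-block row.

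Rps27l (ENSRNOG00000050473, chromosome 8, 67562483 to 67567418), a p53 target in human and mouse cells, had 10.6, 11.4 and 9.78 CPM in rbMSC and 23.5, 23.7 and 13.4 CPM in rcMSC, a log2 change of 0.94 with an SE of 0.206 (edgeR, adjusted p = 0.00599). Rps27 rose by 1.55. Rpl22l1 (ENSRNOG00000011817, chromosome 2, 111754687 to 111756625), which Rpl22 holds down in mice, had 8.75, 11.1 and 8.67 CPM in rbMSC and 18.4, 19.99 and 12.99 CPM in rcMSC, a log2 change of 0.85 with an SE of 0.169 (edgeR, adjusted p = 0.00253). Both members of that pair rose, Rpl22 by 1.03. Rpl3l, a form of heart and skeletal muscle, had 5, 1 and 1 counts in rbMSC and 4, 0 and 0 in rcMSC and was not tested, while Rpl3 rose by 0.80. Rpl7l1 (ENSRNOG00000016269, chromosome 9, 14198092 to 14206110), a relative of Rpl7, changed least, from 75.7 ± 1.91 to 88.7 ± 7.4 CPM (SD, n = 3 each), a log2 change of 0.23 with an SE of 0.0699 (edgeR, adjusted p = 0.0213). That call was lost with any rbMSC library or with rcMSC replicate 1 or 2 left out (edgeR adjusted p = 0.0535 to 0.0875), and with libraries scaled by total counts (0.0571).

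The other paralogs tested rose by 1.04 to 1.73 on the log2 scale. Rps15al4 (ENSRNOG00000052207, chromosome 2, 54437544 to 54438030), a single-block row, had 3.65, 3.59 and 3.25 CPM in rbMSC and 13.8, 12.4 and 8.44 CPM in rcMSC, a log2 change of 1.73 with an SE of 0.19 (edgeR, adjusted p = 4.97e-05). Rpl10l (ENSRNOG00000067139, chromosome 6, 84543540 to 84545816), a gene without introns that is known from testis in mouse and human, had 2.53, 1.69 and 1.11 CPM in rbMSC and 6.01, 4.68 and 5.12 CPM in rcMSC, a log2 change of 1.58 with an SE of 0.261 (edgeR, adjusted p = 0.000754). In both, the groups did not overlap. Rps12l2, Rps18l1 and Rps10l1, each with a single exon block, rose by 1.49, 1.36 and 1.17 on the log2 scale (edgeR adjusted p = 0.000101, 0.00017 and 0.00479). Rpl35al1, with 3 blocks and on the chromosome of the RefSeq Rpl35a window, had 1.04 (edgeR adjusted p = 0.00118). Rpl31l4 had 1.06 (edgeR adjusted p = 0.0199) and lost its call without rbMSC replicate 1 or 3 or rcMSC replicate 2 (edgeR adjusted p = 0.0506 to 0.0821) and with the length trend removed (0.0757). Rpl30l1 had 1 to 10 counts per library and was not tested. Reads of single-block rows such as these may be shared with the parent genes Rps15a, Rps12, Rps18 and Rps10. Rpl26l1 and Rpl36al were not analysed here. No row was found under 9 of the 77 canonical symbols, which were Rpl7, Rpl10, Rpl13a, Rpl27a, Rpl36, Rpl37a, Rpl41, Rps7 and Rps26. The counts of canonical genes therefore cover only the symbols with a row.

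**Figure D3:**
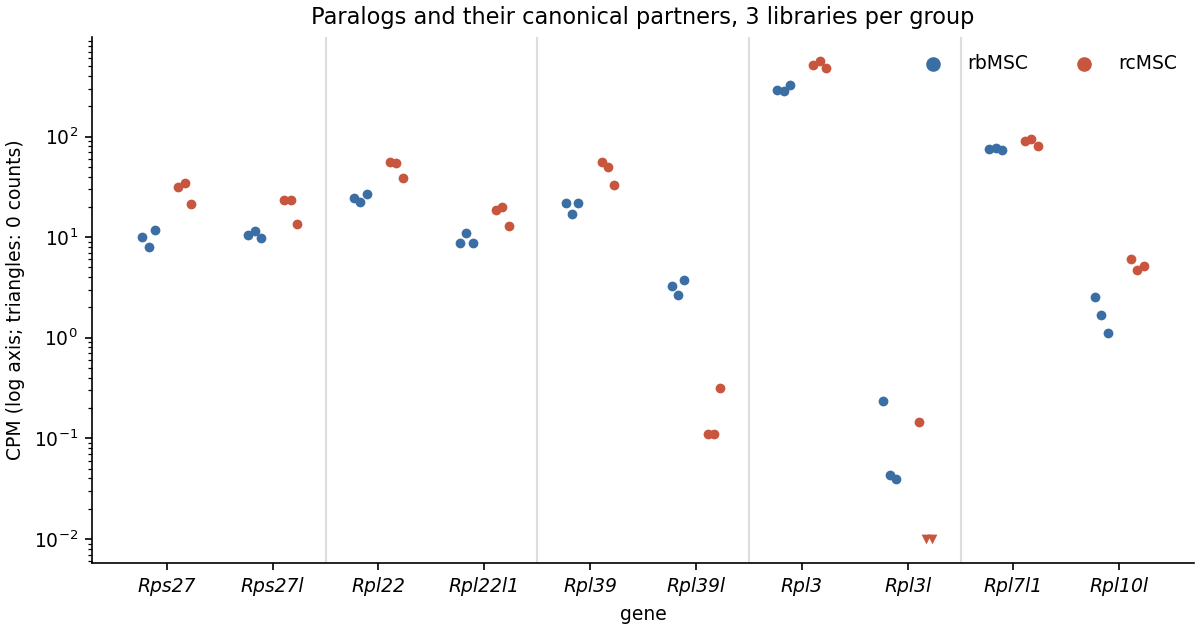
CPM in each library, on a log axis, of paralogs beside their canonical relatives where these have a row, with the 3 rbMSC and 3 rcMSC libraries as points and libraries with 0 counts as triangles at the foot. Rpl39l lies between 2.68 and 3.72 CPM in rbMSC and between 0.109 and 0.320 CPM in rcMSC, and Rpl39 is higher in rcMSC.

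Spread within a group passed 0.5 on the log2 scale (SD over 3 libraries) in 15 of the rows tested. They were Rpl10l, Rpl39l, Rps10l1, the main Rps4x row, the short Rps6 row, both Rpl37 rows, 3 Rpl39 copies and 1 copy each of Rpl30, Rpl38, Rpl9, Rps20 and Rps29. None was a canonical gene with 1 row.

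Messages outside the family that share its roles or its TOP tract were read for comparison. Fau, made as a fusion of a ubiquitin-like protein with a 40S protein, had 69.5, 70.5 and 71.3 CPM in rbMSC and 156, 187 and 124 CPM in rcMSC, a log2 change of 1.14 with an SE of 0.131 (edgeR, adjusted p = 0.00017). Rack1, a scaffold on the 40S head, had 112, 123 and 108 CPM in rbMSC and 201, 197 and 144 CPM in rcMSC, a log2 change of 0.66 with an SE of 0.121 (edgeR, adjusted p = 0.00235). Of 17 other messages known to carry a TOP tract, among them these 2, 16 were higher and 1 lower. Their median was 0.68, and over all genes 22.6% were called higher and 23.2% lower. Tpt1, the translationally controlled tumour protein, rose most, with 425, 447 and 461 CPM in rbMSC and 1315, 1325 and 818 CPM in rcMSC, a log2 change of 1.38 with an SE of 0.18 (edgeR, adjusted p = 0.000811). The elongation factors Eef1a1 and Eef2 rose by 0.69 and 0.63, Eef1b2 by 1.32 and the poly(A) binding protein Pabpc1 by 1.02. Hnrnpa1, a splicing regulator, was lower by -0.20 (edgeR adjusted p = 0.0136), a call lost without rbMSC replicate 1 or 3 or rcMSC replicate 1 (edgeR adjusted p = 0.0608 to 0.0624).

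The counts called in the next lists stand beside 22.6% of all genes tested called higher and 23.2% called lower. Of 19 mitochondrial ribosomal proteins tested, which build a separate ribosome, 10 were higher, none was lower and 9 did not pass in edgeR, with a median of 0.29. The largest was Mrps34 at 0.74 (edgeR adjusted p = 0.00744), below all but 3 of the 52 cytosolic genes. Among 18 chaperones and import receptors of ribosomal proteins, 9 were higher and 1 was lower, with a median of 0.19. Ltv1, an assembly factor of the 40S subunit, rose by 0.68 (edgeR adjusted p = 0.000178), and Tnpo1, an import receptor, was lower by -0.17 (edgeR adjusted p = 0.0202). Of 21 regulators, 9 were higher and 2 lower, with a median of 0.05. Myc, a transcription factor of growth genes, rose from 6.42 ± 1.33 to 10.03 ± 0.656 CPM (SD, n = 3 each), or by 0.64 on the log2 scale (edgeR adjusted p = 0.00686). Larp1 rose by 0.24 and Eif4ebp1, a translation repressor under mTOR, by 0.40, while Tsc1 and Tsc2, which restrain mTOR, were lower by -0.23 and -0.17 (edgeR adjusted p = 0.0343 and 0.0398). Mtor itself did not pass at -0.18 (edgeR adjusted p = 0.0889).

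**Figure D4:**
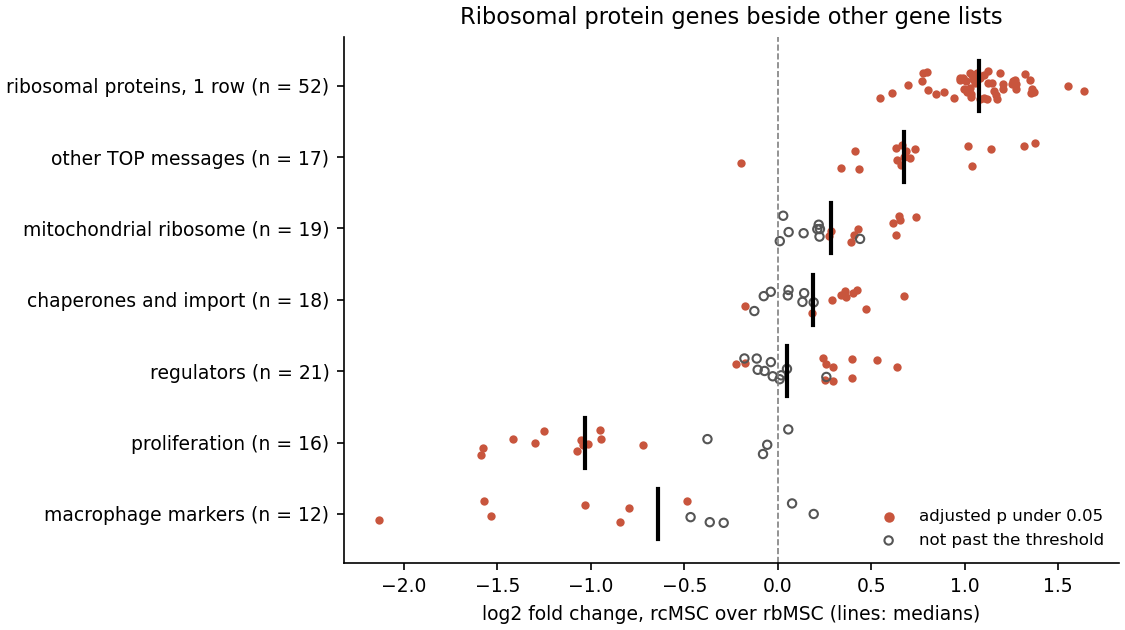
Log2 fold change, rcMSC over rbMSC, of each tested gene of the ribosomal protein list and of 6 other lists, with lines at list medians, filled points past the edgeR adjusted p of 0.05 and open points not past it. The ribosomal protein genes lie at 0.54 to 1.64, the mitochondrial ribosome has a median of 0.29 and the regulators one of 0.05.

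Fold changes drifted with gene length in these libraries. Among genes outside the family the median was 0.21 at up to 500 bases, 0.30 at 500 to 1000 bases, 0.04 at 2000 to 3000 bases and -0.12 above 5000 bases. The 2 canonical genes of up to 500 bases had a median of 1.196, and the 19 of 500 to 1000 bases had 1.12. The 13 of 1000 to 1500 bases had 1.03, and the 9 of 1500 to 2000 bases had 1.17. The 7 of 2000 to 3000 bases had 0.80, and the 2 of 3000 to 5000 bases had 1.31. The canonical medians thus did not fall steadily with length. The 4459 other genes at least as abundant as the least abundant canonical gene and no longer than the longest had a median of 0.125, with 1479 higher and 745 lower. With the length trend removed the canonical median was 0.95 and all 52 were called higher, while the split over all genes moved from 3351 higher and 3445 lower to 4292 higher and 2857 lower. Across the 52 genes the log2 fold change had a Pearson r of -0.18 with log2 length (Spearman rho -0.16), -0.18 with mean log2 CPM (-0.15) and -0.41 with the number of exon blocks (-0.32). These are descriptions over genes that share the same libraries, and genes are not independent replicates.

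**Figure D5:**
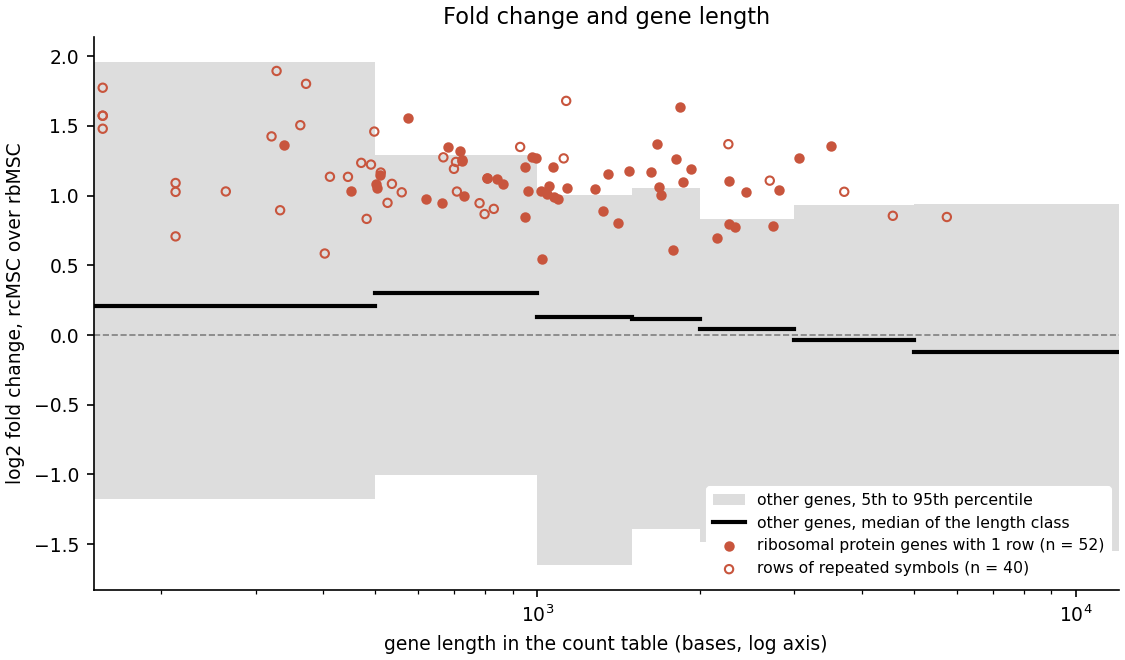
Log2 fold change, rcMSC over rbMSC, against gene length on a log axis, for the 52 canonical genes with 1 row (filled) and the 40 tested rows of repeated symbols (open), over the median (bars) and 5th to 95th percentile (grey) of all other genes in each length class. The filled points lie at 0.54 or more at every length, above the bars, which run from 0.30 at 500 to 1000 bases to -0.12 above 5000 bases.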

How the data were processed

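RNA of 3 rbMSC and 3 rcMSC libraries was sequenced as paired reads of 150 nt. Per the labels' protocols, trimming used Trim Galore 0.6.7 and Trimmomatic 0.39, STAR 2.7.9a aligned the reads to mRatBN7.2, and featureCounts 2.0.1 counted them per gene. The submitters' processing notes also name DESeq2 1.20.0. The strand setting of the counting is not given in the sources used here, nor is its treatment of multi-mapped reads or the annotation. The authors deposited raw counts with no scaling, and their length column was used for RPKM and the length trend.

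Libraries were grouped by title. edgeR 4.0.16 (R 4.3.3) tested rcMSC against rbMSC with TMM scaling, filterByExpr, robust quasi-likelihood fits and p-values adjusted by Benjamini-Hochberg over all 14836 genes that passed, at a threshold of 0.05. Of the 108 member rows 103 passed the filter. CPM values are TMM-scaled, and 1 count was worth 0.0364 to 0.0468 CPM. The SE was taken as the fold change (log2) over the root of its F statistic. The fits were tested on simulated data. Motifs were searched in RefSeq promoter windows (GRCr8), matched by symbol.

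The members and lists were chosen with earlier results of these data known. Some members are counted but not reported singly here. Genes named are drawn from the 6 largest canonical rises (no canonical gene fell), the 5 highest per length, called paralogs, repeated symbols, a fixed set of members and paralog pairs, and the largest called change of each list. Other genes named, such as Rpl18, Eef1a1 and Larp1, were chosen after their values were seen. Alternatives were other scalings, filters, DESeq2 1.42.0, length or abundance trends removed, the replicate number as a block, rows of a symbol summed, and each library left out.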

Additional observations from a re-analysis of the deposited data

How the results depend on the processing

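All 52 canonical genes were called higher and 0 lower under every alternative run, and 68 of 68 symbols when the rows of a symbol were summed. The canonical median log2 fold change ran from 0.95 with the length trend removed to 1.21 without rcMSC replicate 3, and from 1.00 to 1.21 over the fits without 1 library. The summed log2 ratio was 0.96 to 1.21 without 1 library. With the replicate block the median was 1.07 with 52 genes higher. The shared replicate numbers are not known to pair libraries, since the correlations of deviations in same-numbered libraries were -0.03, 0.02 and -0.05 and 1 of 3 correlated best with its own number, and 1 Rpl38 copy lost its call under the block. Paralogs called higher numbered 8 to 10 of 11, and 1 was lower throughout. Of the 98 member rows called, 91 (without rcMSC replicate 2) to 98 kept their call and direction in fits without 1 library, 92 with the length trend removed, 96 with DESeq2 and 94 with a minimum of 1 CPM in 3 libraries, which left some rows untested. Without the low-count filter a parent row of Rpl9 did not pass (edgeR adjusted p = 0.0656). The cause of these losses was not tested. Rows with few counts, such as Rpl3l, were not tested at this depth.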

Other observations

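The table also holds 41 rows that its gene ontology terms place in the cytosolic ribosome and that the symbol rule does not reach, since they have no symbol or a pseudogene or placeholder symbol. They were chosen after values were seen. Of 23 tested, 19 were higher in rcMSC, 1 was lower and 3 did not pass in edgeR, and 18 more rows had too few counts. The median log2 fold change was 1.04, and 22.6% of all genes were called higher and 23.2% lower. Rows with a pseudogene symbol among them were Rpl6-ps1 at 1.06, Rps27a-ps1 at 1.11 and Rpl12-ps1 at 1.22 (edgeR adjusted p = 0.000134, 0.000207 and 0.000162). Their parents Rpl6, Rps27a and Rpl12 had 0.99, 1.27 and 1.68, and reads that a pseudogene shares with its parent cannot be told apart in these counts. The row that was lower, ENSRNOG00000023383 on the X chromosome, has 20 exon blocks and no symbol, at -0.40 on the log2 scale (edgeR adjusted p = 0.000511).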
